A study of Mus musculus with 12 samples.

Results

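The genes described here encode 39 subunits and enzymes of the large chromatin complexes, taken by name from a fixed list and measured as transcripts in sorted mouse bone marrow progenitors. They comprised 16 Polycomb genes, 8 genes of the MLL methyltransferase complexes and their partners, 9 SWI/SNF genes and 6 histone deacetylases and acetyltransferases, out of 23383 genes in the count tables. All 39 were found under the same symbol in all 12 libraries, and all 39 passed the filter on low counts in each comparison. The rule names genes by complex and uses no measured value, but the list was chosen with earlier results of these data known.

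Complexes with opposite roles meet on the same genes in blood progenitors. Polycomb repressive complex PRC2 places methyl groups on lysine 27 of histone H3, and PRC1, which reads that mark through its CBX subunits, compacts chromatin and ubiquitinates histone H2A. MLL complexes methylate lysine 4 of histone H3 at active genes, SWI/SNF uses ATP to move nucleosomes, acetyltransferases such as CBP and p300 mark active enhancers, and deacetylases remove that mark. In bone marrow, Polycomb and MLL subunits are known for their part in stem cell self-renewal, and several of these genes are recurrently mutated in leukemia.

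Bulk RNA was sequenced from common myeloid progenitors (CMP) and from LSK cells, the lineage-negative gate positive for Sca-1 and c-Kit that holds stem and multipotent progenitor cells. Both were sorted from bone marrow of C57BL/6 mice that lacked the Cebpa +42 kb enhancer on both alleles (Cebpa +42kb enhancer -/-, here enhancer-null) or were wild type, with 3 libraries in each of the 4 groups. The deletion was carried by the animal and by every cell in it, so effects inside the sorted cells and effects of the changed marrow around them cannot be told apart. The sources used here give no age, treatment or pooling of animals. Enhancer-null libraries carry the replicate numbers 1, 2 and 7 and wild-type libraries 1, 6 and 8, and values are listed below in that order. C/EBPα, the product of Cebpa, is the transcription factor that commits progenitors to the granulocyte and macrophage lineages.

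The label check gave Cebpa at 0, 0.147 and 0 CPM (gene counts scaled to library size) in enhancer-null CMP against 17.3, 15 and 30 CPM in wild-type CMP, and at most 0.302 against at least 2.46 CPM in LSK. Ly6a, which encodes Sca-1, stood at 134 to 198 CPM in LSK and at most 12.8 CPM in CMP. The stem cell transcript Hlf was at 29.6 to 113 CPM in enhancer-null LSK against 388 to 488 CPM in wild-type LSK, and Irf8 at 69.5 to 83.5 CPM in enhancer-null CMP against 388 to 595 CPM in wild-type CMP. The 2 gates thus held cells with different defining transcripts between genotypes. In bulk RNA, a different share of cells and a different amount of RNA per cell cannot be told apart. Gene counts ran from 6170491 to 49149674 per library. The share of 9186 abundant genes without a count was 3.57% for enhancer-null CMP replicate 1 and 1.82% for wild-type LSK replicate 6, the highest of the libraries. Cbx8 in that CMP library was the only member at 0, where 3 counts would be 0.335 CPM.

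Promoter sequence was matched for 33 of the 39 genes, in 39 windows of 300 bases from 250 before to 50 after a RefSeq transcript start (GRCm38.p6). The median window of these genes held 29 CpG dinucleotides, against 7 over all 32851 windows. Both strands were searched for 4 motifs. The E2F letters TTTGGCGC, TTTCCCGC, TTTGCCGC or TTTCGCGC were in 4 member windows (Ezh2, Suz12, Arid1a and Kat2a) and in 2.26% of all windows. The ETS letters CCGGAAG were in 6 member windows and 8.86% of all windows, the C/EBP letters TTGCNNAA in 2 and 10.8%, and the GATA letters AGATAA in 0 and 11.2%. No motif overlapped another in the windows printed here. The 5 windows below run from 200 bases before to 20 after the start and are shown because the results turn on these genes, namely the PRC2 enzyme pair, Cbx7 and the acetyltransferase pair. Capitals mark the single motif match, E2F in Ezh2, whose first base is base 4 of the transcript.
Ezh2 (chr6:47595011-47595230, minus strand): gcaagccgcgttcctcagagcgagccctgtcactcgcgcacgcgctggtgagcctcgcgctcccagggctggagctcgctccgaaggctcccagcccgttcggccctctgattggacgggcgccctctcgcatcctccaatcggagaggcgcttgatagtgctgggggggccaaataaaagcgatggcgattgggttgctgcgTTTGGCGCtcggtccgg
Ezh1 (chr11:101226444-101226663, minus strand): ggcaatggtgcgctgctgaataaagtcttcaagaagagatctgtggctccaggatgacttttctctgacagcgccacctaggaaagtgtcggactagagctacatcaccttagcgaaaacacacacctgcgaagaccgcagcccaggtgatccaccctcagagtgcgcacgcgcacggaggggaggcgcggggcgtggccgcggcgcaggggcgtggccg
Cbx7 (chr15:79932627-79932846, minus strand): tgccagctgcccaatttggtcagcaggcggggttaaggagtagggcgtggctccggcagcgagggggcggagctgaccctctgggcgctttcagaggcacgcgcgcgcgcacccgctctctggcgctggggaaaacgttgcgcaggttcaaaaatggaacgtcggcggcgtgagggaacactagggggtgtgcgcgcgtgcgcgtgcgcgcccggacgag
Crebbp (chr16:4213385-4213604, minus strand): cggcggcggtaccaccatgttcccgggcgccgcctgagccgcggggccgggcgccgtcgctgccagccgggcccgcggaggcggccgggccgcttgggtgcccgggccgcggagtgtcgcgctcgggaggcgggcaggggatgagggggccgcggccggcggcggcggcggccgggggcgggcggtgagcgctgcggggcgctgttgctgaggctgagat
Ep300 (chr15:81586014-81586233, plus strand): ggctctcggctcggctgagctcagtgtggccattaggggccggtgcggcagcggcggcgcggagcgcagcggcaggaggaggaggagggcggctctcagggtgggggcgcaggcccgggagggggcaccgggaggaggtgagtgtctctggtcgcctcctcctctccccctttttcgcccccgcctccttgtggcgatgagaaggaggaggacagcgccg

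The Ezh2 window of 220 bases holds 24 CpG and 66.8% G or C, and the Ezh1 window 18 CpG and 61.4%. The Crebbp window is the richest of those printed, with 38 CpG and 83.2% G or C, while Cbx7 has 28 CpG and 68.6% and Ep300 has 20 CpG and 72.7%. A match is a string of letters and not a measured binding site.

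Expressed per kilobase of exon, so that genes can be compared with each other, the most abundant members over the 12 libraries were the SWI/SNF core subunit Smarcd2 at 66.6 ± 11.6 CPM per kb (SD over 12 libraries), Hdac1 at 64 ± 11.6 and Hdac2 at 54.1 ± 9.15. Cbx8 at 2.19 ± 1.85 and Cbx7 at 3.12 ± 2.21 CPM per kb were the lowest. The first 2 genes differed by less than their spread, as did the last 2. In PRC2, Suz12 stood at 39.1 ± 6.32 and Eed at 35 ± 9.46 CPM per kb, the catalytic Ezh2 at 25.9 ± 6.51 and its paralog Ezh1 at 6.87 ± 2.06. Within SWI/SNF, the ATPase Smarca4 stood at 38.7 ± 8.34 and its alternative Smarca2 at 6.59 ± 5.69 CPM per kb.

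**Figure D1:**
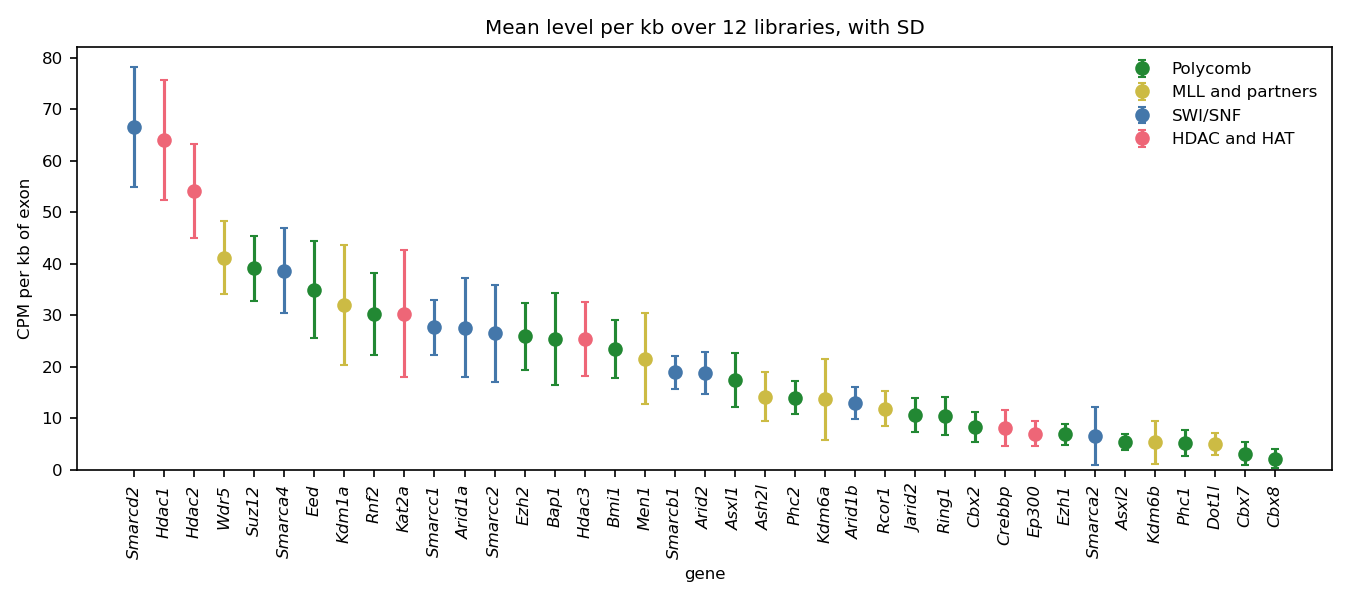
Mean level of each of the 39 genes in CPM per kb of exon over the 12 libraries (points), with the SD (bars), coloured by complex. Smarcd2, Hdac1 and Hdac2 lead, and Cbx7 and Cbx8 come last.

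The within-group SD on the log2 scale had a median of 0.394 over members, against 0.652 over all 12684 genes tested and 0.559 over the 8871 genes in the same range of level. That range runs from the lowest to the highest member mean. It holds most genes tested and does not match their levels to those of the members. Hdac1 with 0.108 and Hdac2 with 0.129 were the steadiest. Cbx8 with 1.27, Smarca2 with 1.1 and Ring1 with 0.92 were the most variable. Ring1, a PRC1 ubiquitin ligase, read 3.28 CPM in enhancer-null CMP replicate 7 and 24.3 to 48 CPM in the other 11 libraries.

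**Figure D2:**
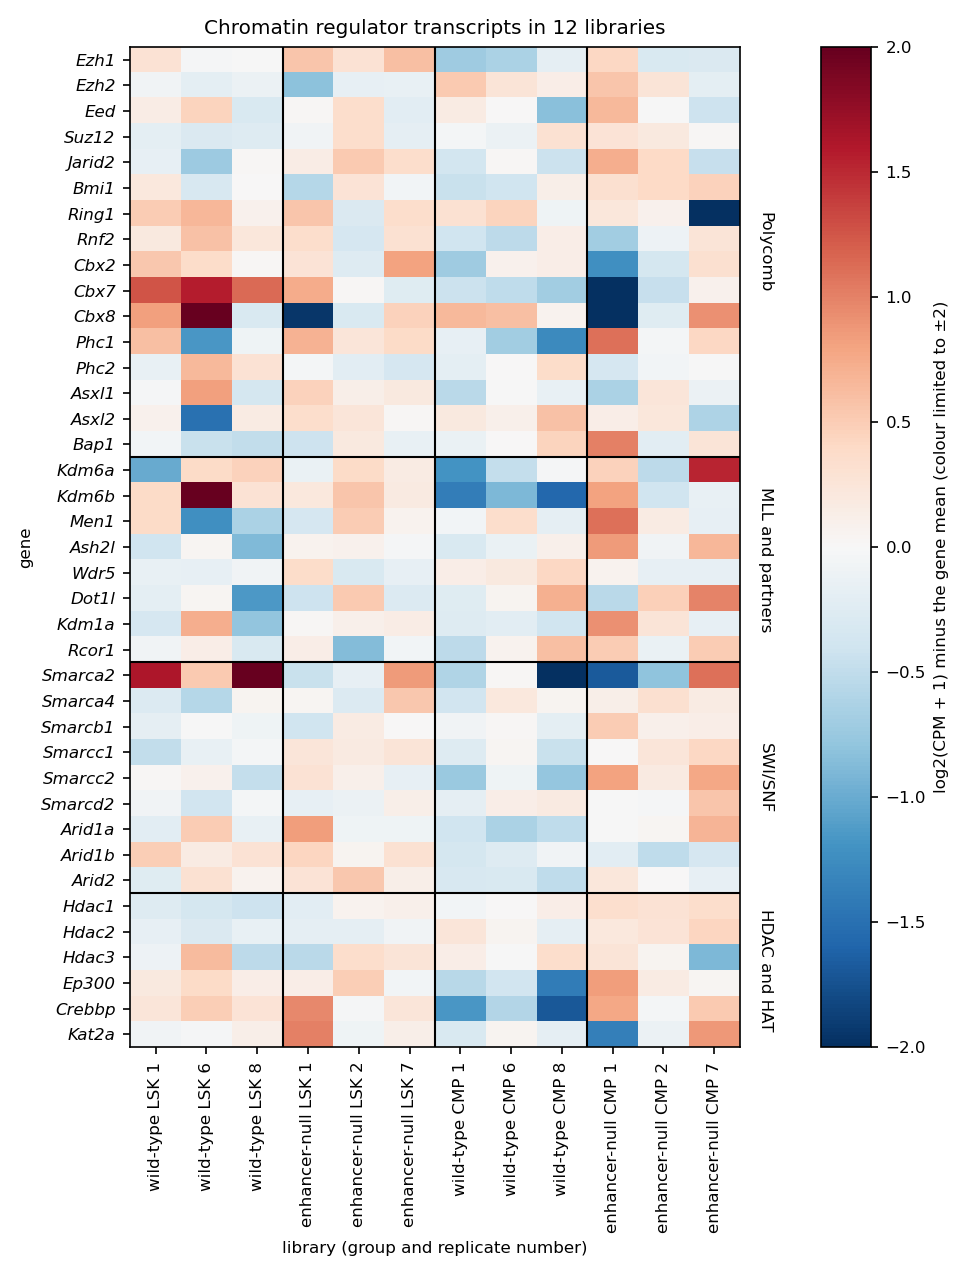
Each row is a gene and each column a library, and colour gives log2(CPM + 1) minus the mean of the gene. Cbx7 is high in the 3 wild-type LSK libraries, and Crebbp, Ep300 and Kdm6b are low in the 3 wild-type CMP libraries.

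The wild-type comparison of CMP with LSK asks how these transcripts differ across the normal myeloid step. One member passed the test, Cbx7, which was lower in CMP. The edgeR quasi-likelihood test with Benjamini-Hochberg adjustment at 0.05 called 4.2% of all 12027 genes, so that 1 of 39 members is near the background. An unadjusted p under 0.05 was found for 10 members and 20.5% of all genes. Members lay on both sides of 0, with a median log2 fold change of -0.16 against -0.01 for all genes. This median changed sign to 0.04 with voom and to 0.03 without wild-type LSK replicate 6. Libraries of the 2 gates did not overlap for 4 members higher in CMP (15.9% of all genes) and 10 lower in CMP (17.4% of all genes).

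Cbx7 encodes the CBX subunit that brings PRC1 to its histone mark and is known for sustaining stem cell self-renewal. The gene (ENSMUSG00000053411.16) lies on the minus strand of chr15:79915807-79971119 in mm10, and 1.54% of its exon bases overlap exons of Apobec3 on the other strand. It read 39.1, 49 and 36.1 CPM in wild-type LSK and 11.5, 10.9 and 9.38 CPM in wild-type CMP. The groups were far apart, and each was narrow. Cbx7 fell by 1.91 on the log2 scale from LSK to CMP (SE 0.41, adjusted p = 0.0457), a 3.77-fold difference. The direction held in all 13 alternatives, in which the log2 fold change ran from -2.01 to -1.74. The call was lost in 9 of them, and the adjusted p ran from 9.8e-05 to 0.197. In enhancer-null mice the gene read 27.3, 16.2 and 13.3 CPM in LSK and 1.96, 11.3 and 16.9 CPM in CMP, ranges that overlap.

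Cbx2, an alternative CBX subunit of PRC1, read 48.9, 43.2 and 33.8 CPM in wild-type LSK and 19.9, 35.5 and 36.6 CPM in wild-type CMP, with overlap. Per kilobase, Cbx2 exceeded Cbx7 by 1.34 to 1.9 times in wild-type LSK and by 2.64 to 5.95 times in wild-type CMP. Cbx8 read between 4.48 and 26.1 CPM in wild-type LSK and between 6.15 and 9.65 CPM in wild-type CMP. For Cbx8 the 95% interval of the log2 difference, -2.66 to 1.3, leaves more than a 2-fold change in each direction within its bounds. Of the other PRC1 genes, Rnf2, the main ubiquitin ligase, was lower in CMP without overlap (84 to 133 against 138 to 182 CPM), with an adjusted p of 0.287.

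**Figure D3:**
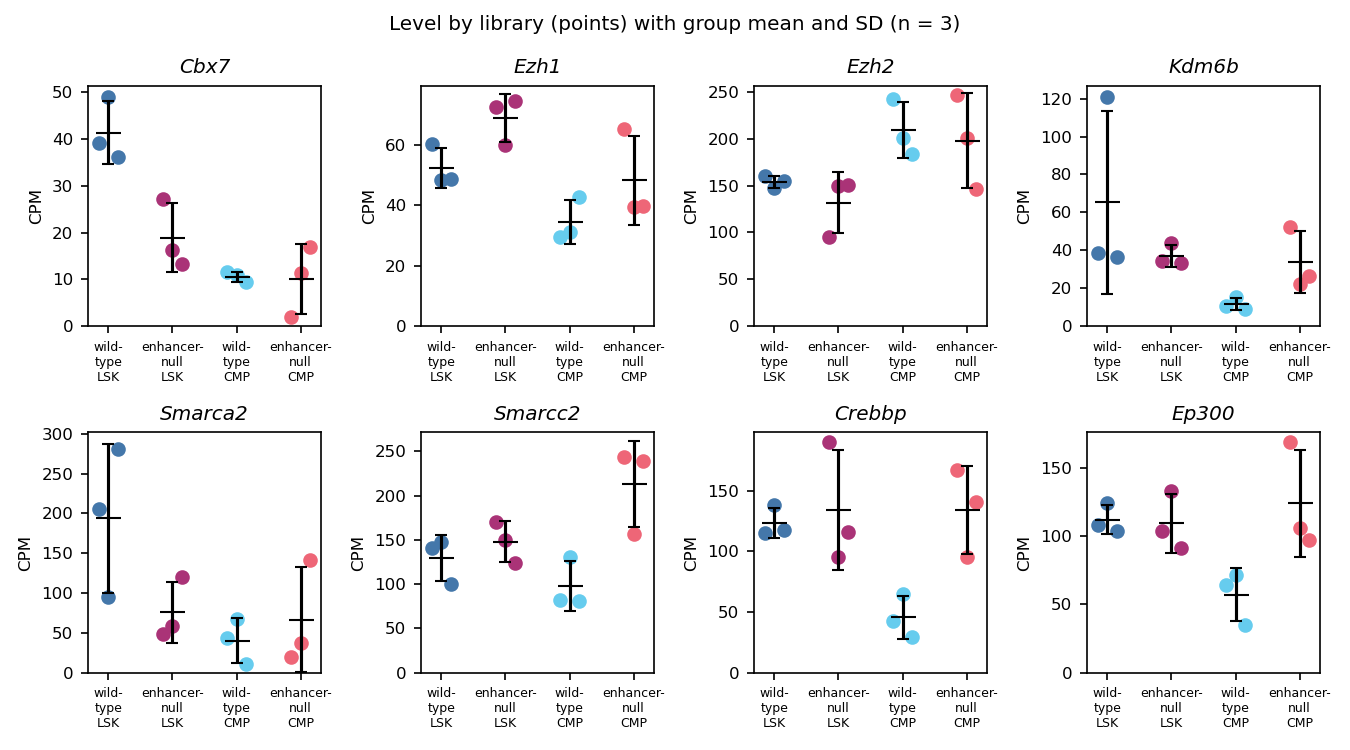
Level in CPM of 8 genes in each library (points) by group, with the group mean and SD (bars, n = 3). For Cbx7, Ezh1, Kdm6b, Smarca2, Crebbp and Ep300 the wild-type CMP points lie below all wild-type LSK points. For Ezh2 they lie above, and for Smarcc2 they overlap.

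In PRC2, the enzyme pair differed in balance between the gates. Ezh2, the main methyltransferase of dividing cells, read 160, 147 and 155 CPM in wild-type LSK and 242, 201 and 184 CPM in wild-type CMP. Ezh1, its paralog known from resting cells, read 60.2, 48.4 and 48.8 CPM in wild-type LSK and 29.4, 31.2 and 42.9 CPM in wild-type CMP. Neither pair of groups overlapped, in opposite directions, and neither gene passed the edgeR test (log2 fold change 0.49, SE 0.17, adjusted p = 0.158 for Ezh2, and -0.55, SE 0.31, adjusted p = 0.372 for Ezh1).

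The ratio of Ezh2 to Ezh1 per kilobase compares both genes within one library. It was 2.96, 3.4 and 3.54 in wild-type LSK and 9.17, 7.17 and 4.77 in wild-type CMP. In enhancer-null mice it was 1.45, 2.8 and 2.25 in LSK and 4.2, 5.65 and 4.07 in CMP. All 6 CMP libraries were above all 6 LSK libraries. Within each gate the ranges of the genotypes overlapped in CMP and did not in LSK. The ratios are a description, and no test was run on them. The summed CPM of 20 G2 and mitosis genes was 4330 to 4490 in wild-type CMP, 1650 to 2540 in wild-type LSK, 1680 to 3280 in enhancer-null CMP and 1370 to 1850 in enhancer-null LSK, and its part in the Ezh2 levels was not tested.

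**Figure D4:**
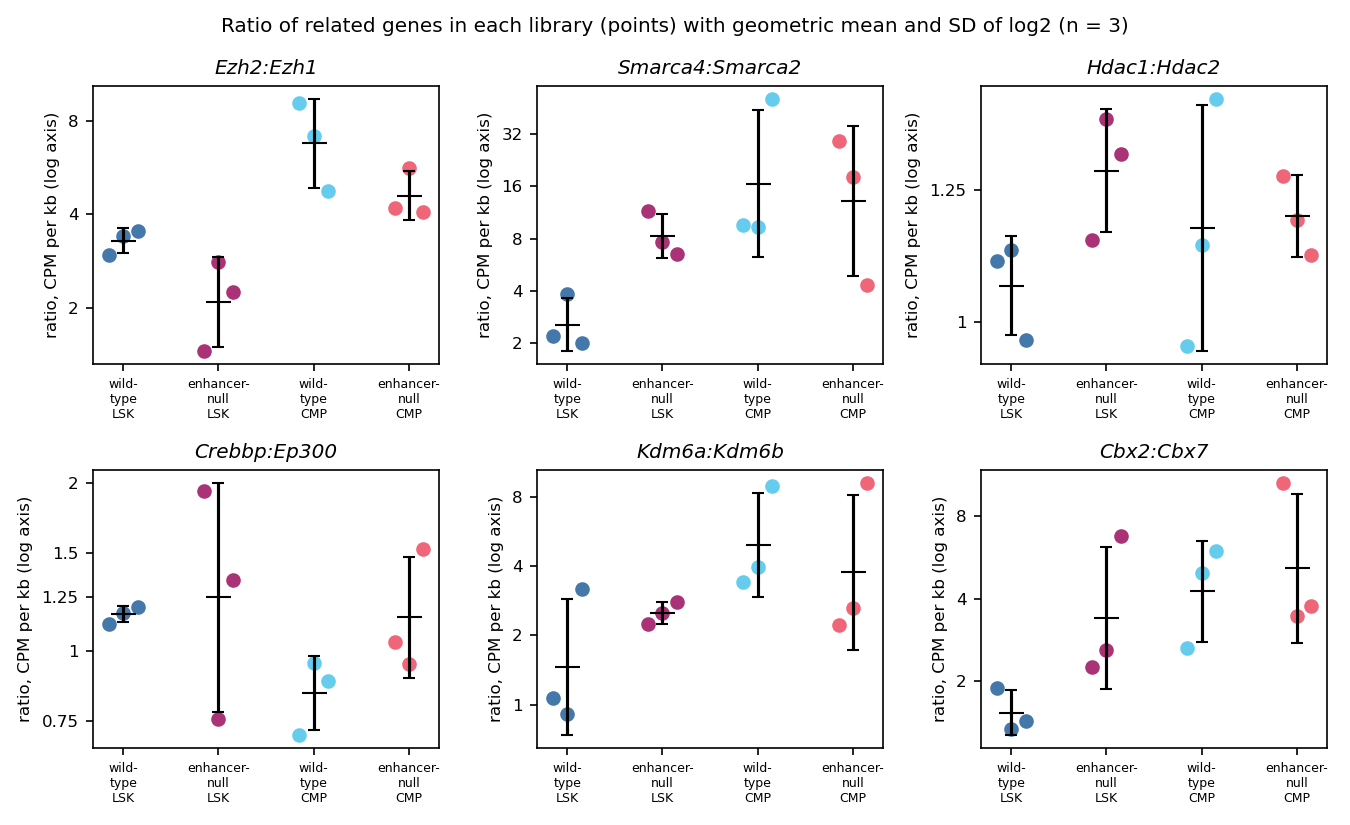
Ratio of 6 pairs of related genes in CPM per kb in each library (points, log axis), with the geometric mean and the SD of the log2 ratio (bars, n = 3). The Ezh2 to Ezh1 ratio is 1.45 to 3.54 in LSK and 4.07 to 9.17 in CMP, and the Smarca4 to Smarca2 ratio is lowest in wild-type LSK.

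Among the MLL group, the lysine 27 demethylase Kdm6b, which removes the PRC2 mark, read 38.7, 121 and 36.4 CPM in wild-type LSK and 10.7, 15.3 and 9.25 CPM in wild-type CMP. All CMP values were below all LSK values, and 1 LSK library stood far above the others. The log2 fold change was -2.43 (SE 0.57, adjusted p = 0.0623), and -1.61 without wild-type LSK replicate 6 (adjusted p = 0.0553). The same change was called with DESeq2 and with voom. Kdm6a, the X-linked demethylase of the MLL3 and MLL4 complexes, read 49.7, 132 and 139 CPM in wild-type LSK and 43.6, 72.6 and 99.2 CPM in wild-type CMP, with overlap (adjusted p = 0.588). Wdr5, a shared MLL core subunit, read 131 to 139 CPM in LSK and 160 to 196 CPM in CMP without overlap (adjusted p = 0.206).

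For SWI/SNF, the ATPase Smarca2 read 205, 95 and 281 CPM in wild-type LSK and 43.2, 66.9 and 10.9 CPM in wild-type CMP. The groups did not overlap, but libraries of 1 group differed severalfold. Smarca2 had a log2 fold change of -2.21 (SE 0.66, adjusted p = 0.109). It passed the test with DESeq2, with voom and without wild-type LSK replicate 6 (log2 fold change -2.52, adjusted p = 0.0464). Without wild-type CMP replicate 6 the log2 fold change was -2.83 (adjusted p = 0.155). Smarca4, the other ATPase, read 203, 165 and 256 CPM in LSK and 187, 284 and 254 CPM in CMP, with overlap (log2 fold change 0.27, SE 0.23). The Smarca4 to Smarca2 ratio per kilobase was 2 to 3.82 in wild-type LSK and 9.34 to 51.5 in wild-type CMP. The 3 ARID subunits, which direct the complex to its targets, were all lower in CMP without overlap, with log2 fold changes of -0.55 for Arid1a, -0.49 for Arid1b and -0.39 for Arid2 and adjusted p of 0.238, 0.169 and 0.332. The core subunits Smarcb1 and Smarcc1 had intervals of -0.34 to 0.47 and -0.42 to 0.54 around log2 differences of 0.07 and 0.06.

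Of the 3 acetyltransferases, Crebbp and Ep300 were lower in CMP without overlap, and neither passed the edgeR test. Crebbp, which encodes CBP (ENSMUSG00000022521.10, minus strand of chr16:4081328-4213997), read 115, 138 and 118 CPM in wild-type LSK and 43, 64.8 and 29.5 CPM in wild-type CMP. Its paralog Ep300 (plus strand of chr15:81585351-81652077) read 108, 124 and 104 CPM in wild-type LSK and 64, 71.8 and 35.1 CPM in wild-type CMP. The groups did not overlap for either gene. The log2 fold change was -1.39 for Crebbp (SE 0.32, adjusted p = 0.0568) and -0.93 for Ep300 (SE 0.3, adjusted p = 0.138). DESeq2 called both and voom called Crebbp. The third acetyltransferase, Kat2a, overlapped between the gates (log2 fold change -0.09, SE 0.21, adjusted p = 0.851). Of the 3 deacetylases, Hdac1 alone did not overlap, at 181, 169 and 162 CPM in LSK and 209, 219 and 238 CPM in CMP (a log2 fold change of 0.44, SE 0.15, adjusted p = 0.163). Hdac2 read 212, 195 and 216 CPM in LSK and 283, 249 and 211 CPM in CMP, and Hdac3 had a log2 fold change of 0.14 (SE 0.32), both with overlap.

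DESeq2 called 5 members in this comparison (13.4% of all genes), namely Cbx7, Crebbp, Ep300, Kdm6b and Smarca2. Voom with sample quality weights also called 5 (13% of all genes), namely Arid1b, Cbx7, Crebbp, Kdm6b and Smarca2. Both counts, 5 of 39, are near those shares of all genes. Every one of these calls was lower in CMP. Cbx7, Crebbp, Kdm6b and Smarca2 are in both lists, and both tools used the same libraries. The directions of the DESeq2 and voom calls over all genes were not counted. Long transcripts as a class were lower in wild-type CMP as well. Genes with more than 10 kb of exon took 7.48% to 8.83% of the counts in wild-type CMP, against 9.02% to 9.44% in wild-type LSK, 9.57% to 9.75% in enhancer-null CMP and 9.75% to 10.1% in enhancer-null LSK. The median log2 fold change of the 1128 such genes tested was -0.24, and that of the 7 members over 10 kb was -0.55, against -0.02 for the 32 shorter members. Crebbp with 13.5 kb, Ep300 with 14.3 kb, Smarca2 with 14.3 kb and the ARID genes are among the 7. The longest of the 7, Asxl2 with 15.9 kb, had estimates of the opposite sign, 0.62 here (SE 0.43, adjusted p = 0.477) and -0.34 in the CMP genotype comparison (SE 0.31, adjusted p = 0.754), with overlap in both. Of the genes with calls from DESeq2 or voom, Kdm6b with 7 kb and Cbx7 with 6.5 kb are shorter than 10 kb. The part of length in these differences was not tested.

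The genotype comparison in CMP asks what loss of the enhancer changed in myeloid progenitors. No member passed the edgeR test, which called 0.589% of all 11722 genes. Of the members, 7 had an unadjusted p under 0.05, as had 12.6% of all genes. The members leaned to higher levels in enhancer-null CMP, with 29 of 39 log2 fold changes above 0 and a median of 0.30 against -0.02 for all genes. Libraries did not overlap for 11 members that were higher in enhancer-null CMP (10.8% of all genes) and 1 that was lower (12.9% of all genes). This comparison shares the wild-type CMP libraries with the one above, so the low wild-type values enter both.

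Crebbp read 167, 95.2 and 141 CPM in enhancer-null CMP and 43, 64.8 and 29.5 CPM in wild-type CMP. No value overlapped, and the enhancer-null libraries lay near the LSK level of 95.8 to 190 CPM. The log2 fold change was 1.57 (SE 0.37, adjusted p = 0.138), 2.96-fold. Ep300 read 169, 106 and 97.3 CPM against 64, 71.8 and 35.1 CPM, a log2 fold change of 1.13 (SE 0.36, adjusted p = 0.259). The 1102 genes over 10 kb had a median log2 fold change of 0.14 in this comparison, the 7 members over 10 kb 0.74 and the other 32 members 0.25.

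Within SWI/SNF, the core scaffold subunit Smarcc2 read 243, 157 and 239 CPM in enhancer-null CMP and 82.4, 131 and 81.1 CPM in wild-type CMP. Its groups did not overlap. For Smarcc2 the log2 fold change was 1.13 (SE 0.28, adjusted p = 0.168), 2.19-fold, and the gene has 5.6 kb of exon. Its paralog Smarcc1 read 214 to 285 CPM against 157 to 218 CPM, a smaller difference with overlap. Arid1a read 299, 310 and 486 CPM against 229, 195 and 211 CPM (log2 fold change 0.8, SE 0.22, adjusted p = 0.217). Smarca2 spread from 20 to 142 CPM in enhancer-null CMP, so that its interval ran from -1.25 to 2.72 on the log2 scale.

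Kdm6b read 52.5, 22.1 and 26.5 CPM in enhancer-null CMP and 10.7, 15.3 and 9.25 CPM in wild-type CMP. The groups did not overlap, and enhancer-null replicate 1 was the highest. The estimate was a log2 fold change of 1.53 (SE 0.59, adjusted p = 0.346). Kdm6a read 140, 69.9 and 294 CPM against 43.6, 72.6 and 99.2 CPM, with overlap. Kdm1a, the demethylase LSD1, read 296, 189 and 140 CPM against 131, 136 and 119 CPM (log2 fold change 0.7, SE 0.28, adjusted p = 0.371). Wdr5 was the 1 member lower without overlap, at 130 to 154 CPM against 160 to 196 CPM.

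Among the 4 groups of genes, Polycomb genes had the median nearest 0 in this comparison, with a median log2 fold change of 0.11 over 16 genes, 9 above 0 and 7 below. Bmi1, the PRC1 subunit needed for stem cell self-renewal, read 114, 120 and 126 CPM in enhancer-null CMP and 66.3, 68.5 and 98.3 CPM in wild-type CMP. The groups did not overlap, the wild-type libraries were the more spread, and the log2 fold change was 0.63 (SE 0.25, adjusted p = 0.363). Ezh2 read 247, 201 and 146 CPM against 242, 201 and 184 CPM, a difference of -0.07 with an interval of -0.61 to 0.47. Suz12 had an interval of -0.33 to 0.56 around 0.11, so that a 2-fold difference lies outside it. For Cbx7, Cbx8 and Ring1 the intervals were wide, at -2.4 to 2.28, -4.41 to 3.25 and -2.44 to 1.26.

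Of the deacetylases, Hdac1 read 273, 265 and 277 CPM in enhancer-null CMP and 209, 219 and 238 CPM in wild-type CMP. The groups did not overlap, at a small distance (log2 fold change 0.3, SE 0.15, adjusted p = 0.5). Hdac2 read 277, 289 and 321 CPM against 283, 249 and 211 CPM, with overlap.

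Other tools gave more calls in this comparison. DESeq2 called 3 of 39 members (5.37% of all genes), Arid1a, Crebbp and Smarcc2, all higher in enhancer-null CMP. The directions of its calls over all genes were not counted. Voom called 0 members (2% of all genes). Of 130 tested subunits of the same complexes outside the 39, edgeR called 1, the lysine 4 demethylase Kdm5b, which opposes MLL. That is 1 in 130, near the 0.589% of all genes. It read 392, 281 and 265 CPM in enhancer-null CMP and 74.9, 74.8 and 101 CPM in wild-type CMP, and rose by 1.91 on the log2 scale (SE 0.24, adjusted p = 0.0219). The call was lost with sex as a covariate (log2 fold change 1.9, adjusted p = 0.068) and without any 1 of the wild-type CMP libraries (1.82 to 2.06, adjusted p 0.095 to 0.141), with a fold change of about the same size.

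Markers of other cells differed between the same groups. The sum of 12 mast cell and basophil genes was 1470 to 1810 CPM in enhancer-null CMP and 87.1 to 297 CPM in wild-type CMP, although Prss34, Tpsb2, Cma1 and Mcpt4 were at 0 in all 3 enhancer-null CMP libraries. Sums over 12 monocyte genes were 109 to 213 against 1040 to 1260 CPM. Over 12 megakaryocyte genes they were 427 to 523 against 205 to 285 CPM, with Gp6 at 0 in all 3 enhancer-null CMP libraries. The T and NK list summed to 463 to 711 against 102 to 188 CPM, with Cd3e at 0 in all 3 enhancer-null CMP libraries. Over 8 stromal genes the sum was 296 to 313 against 77.6 to 135 CPM, with Col1a1, Col3a1 and Cdh5 at 0 in all 3 enhancer-null CMP libraries. The 20 DNA replication genes summed to 3610 to 5400 against 6300 to 7260 CPM. Sums over 11 late neutrophil genes overlapped, at 3.92 to 27.8 CPM in enhancer-null CMP and 2160, 263 and 26.6 CPM in wild-type CMP. Wild-type CMP replicate 1 thus stood far above the other wild-type CMP libraries on that list. The same wild-type libraries enter the wild-type comparison of gates. The part of these cell markers in the chromatin gene levels was not tested.

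**Figure D5:**
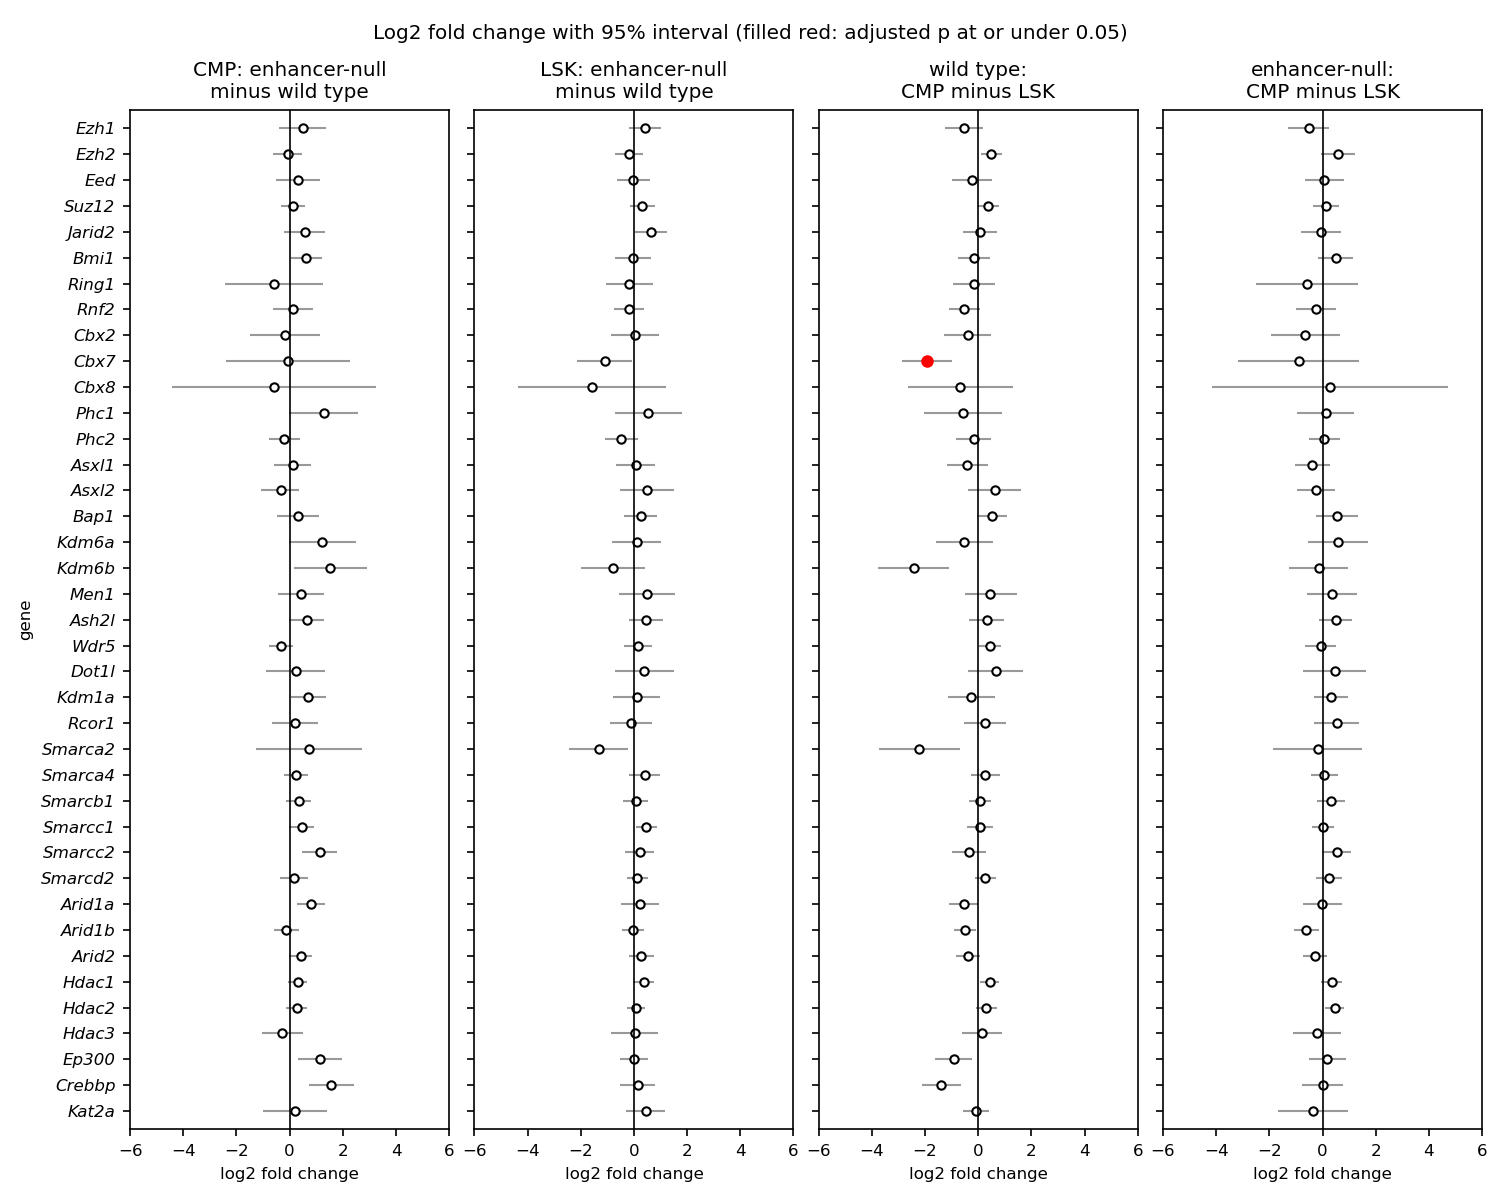
Log2 fold change of each of the 39 genes (circles) with its 95% interval (lines) in 4 comparisons from edgeR. The only filled red circle, Cbx7 in the wild-type comparison, marks an adjusted p at or under 0.05.

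The genotype comparison in LSK asks the same of the stem cell gate. No member passed the edgeR test (0.103% of all 11619 genes called), DESeq2 (2.31% of all genes) or voom (0.422% of all genes). There were 4 members with an unadjusted p under 0.05, and 7.91% of all genes had one. The median log2 fold change was 0.10 against -0.01 for all genes. Without overlap, 4 members were higher (8.65% of all genes), namely Hdac1, Jarid2, Smarcc1 and Suz12, and 1 was lower (10.4% of all genes), Cbx7. In 24 of 39 members the 95% interval lay within a 2-fold change in each direction, against 23% of all genes. In the CMP genotype comparison it did so in 14 members, against 18.5% of all genes. The median SE in LSK was 0.27 for members and 0.5 for all genes. No share was computed over genes matched for level.

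Cbx7 read 27.3, 16.2 and 13.3 CPM in enhancer-null LSK and 39.1, 49 and 36.1 CPM in wild-type LSK. All 3 enhancer-null values were below all wild-type values. The log2 fold change was -1.1 (SE 0.45, adjusted p = 0.61). Smarca2 read 48.2, 58.7 and 120 CPM against 205, 95 and 281 CPM, where 1 value on each side overlapped (log2 fold change -1.33, SE 0.48, adjusted p = 0.546). Both transcripts were thus highest in wild-type LSK among the 4 groups by mean. Smarca4 to Smarca2 per kilobase was 6.55 to 11.5 in enhancer-null LSK against 2 to 3.82 in wild-type LSK, and Cbx2 to Cbx7 was 2.25 to 6.76 against 1.34 to 1.9. Stem cell markers differed between the same libraries, with Hlf as given above, Mecom at 0.321 to 15.2 against 27 to 58.1 CPM and Procr at 0 to 7.79 against 8.52 to 43.8 CPM. Other marker sums differed between the LSK genotypes too. Mast cell and basophil genes summed to 338 to 695 CPM in enhancer-null against 8.64 to 31.9 CPM in wild-type LSK, with Mcpt4 at 0 in all 3 enhancer-null libraries. The T and NK list summed to 528 to 714 against 259 to 294 CPM, with Cd3d at 0 in the enhancer-null libraries, and the stromal list to 315 to 440 against 104 to 140 CPM, with Col3a1 and Cdh5 at 0 there. Late neutrophil genes were at 7.3 to 27.5 against 136 to 1380 CPM and erythroid genes at 771 to 1200 against 1420 to 1690 CPM. The part of these cell markers in the LSK differences of the chromatin genes was not tested.

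The 4 members that were higher in enhancer-null LSK without overlap differed by less than 2-fold, and none passed the test. Hdac1 read 188, 228 and 234 CPM in enhancer-null and 181, 169 and 162 CPM in wild-type LSK (a log2 fold change of 0.37, SE 0.17, adjusted p = 0.642). Suz12 read 182, 243 and 168 CPM against 167, 157 and 160 CPM. Smarcc1 read 251, 241 and 255 CPM against 151, 192 and 208 CPM, and Jarid2, which helps PRC2 find its targets, 109, 142 and 126 CPM against 87.5, 59.3 and 99.8 CPM, with adjusted p of 0.581 and 0.618. Hdac1 was thus higher without overlap in enhancer-null cells of both gates, but passed the test in neither (adjusted p = 0.5 in CMP). The share of all genes higher without overlap in both gates was not counted. Ash2l, an MLL core subunit, read 128, 129 and 120 CPM against 92.3, 126 and 65.4 CPM, with overlap (log2 fold change 0.44, SE 0.27, adjusted p = 0.735). In the LSK libraries Crebbp and Ep300 differed by 0.14 and -0.01, with intervals of -0.52 to 0.8 and -0.54 to 0.53.

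The test of the difference between the 2 genotype effects, CMP minus LSK, used all 12 libraries. It called 0 members, with edgeR calling 0.292% of 12684 genes, DESeq2 1.47% and voom 0.363%. Unadjusted p values under 0.05 were found for 4 members, namely Crebbp, Ep300, Kdm6b and Smarcc2, and for 7.64% of all genes. The estimates on the log2 scale were 1.46 for Crebbp (SE 0.48, adjusted p = 0.389), 1.18 for Ep300 (SE 0.43, adjusted p = 0.489), 2.36 for Kdm6b (SE 0.77, adjusted p = 0.389) and 0.95 for Smarcc2 (SE 0.37, adjusted p = 0.542). The Kdm6b estimate was 0.98 when enhancer-null CMP replicate 1 and wild-type LSK replicate 6 were both left out, and 1.54 without the latter alone. Bmi1 had the smallest p of the Polycomb genes, with 0.7 (SE 0.39, adjusted p = 0.738). A different genotype effect in the 2 gates was therefore not shown for any member.

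Enhancer-null CMP and LSK were compared last. EdgeR called 0% of 11266 genes in this comparison, and so no member. DESeq2 called 1.82% and voom 0.071% of all genes, in each case without a member. Only 2 members had an unadjusted p under 0.05, where 6.92% of all genes did. Further, 3 were higher (7.58% of all genes) and 1 lower (9.26% of all genes) in CMP without overlap. Arid1b, the 1 lower, read 138, 112 and 126 CPM in CMP and 215, 166 and 198 CPM in LSK (a log2 fold change of -0.62, SE 0.2, adjusted p = 0.572). In wild-type mice the same gene read 125, 133 and 152 CPM in CMP and 225, 179 and 195 CPM in LSK. All 6 CMP libraries thus lay below all 6 LSK libraries. Arid1b passed the edgeR test in neither comparison (adjusted p = 0.169 in wild type). The share of all genes with such a separation was not counted.

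Hdac2 read 277, 289 and 321 CPM in enhancer-null CMP and 211, 210 and 228 CPM in enhancer-null LSK (a log2 fold change of 0.46, SE 0.16, adjusted p = 0.601). Hdac1 kept a ratio to Hdac2 of 0.961 to 1.46 per kilobase in the 12 libraries. Ezh2 read 247, 201 and 146 CPM in CMP and 94.7, 150 and 151 CPM in LSK, where the lowest CMP value overlapped (log2 fold change 0.59, SE 0.28, adjusted p = 0.781). Ash2l differed by 0.49 (SE 0.26, adjusted p = 0.817). The genes with the largest wild-type differences had estimates closer to 0 here, at 0.01 for Crebbp (interval -0.77 to 0.78), 0.18 for Ep300 (-0.5 to 0.87), -0.14 for Kdm6b (-1.26 to 0.97), -0.18 for Smarca2 (-1.86 to 1.5) and -0.9 for Cbx7 (-3.18 to 1.38). These genes were picked by their wild-type estimates, a choice that by itself favours smaller estimates in another comparison. The difference between the 2 steps is the interaction, given above for Crebbp, Ep300 and Kdm6b. Its estimate was 2.1 for Smarca2 (SE 1.04, adjusted p = 0.685) and 1.08 for Cbx7 (SE 1.02, adjusted p = 0.904). None of these genes passed the edgeR test of the interaction.

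Beyond the 39, the other subunits of these complexes gave few calls. Of 140 such genes listed, 134 were in the tables. In the wild-type comparison 4 of 131 tested passed edgeR, near the background of 4.2% of all genes. Phf10, a SWI/SNF subunit of the PBAF form, read 55.9, 37.9 and 56.2 CPM in LSK and 131, 142 and 159 CPM in CMP, and rose by 1.58 (SE 0.24, adjusted p = 0.0176). Mbd2, the methyl-CpG binding subunit of the NuRD deacetylase complex, rose by 0.99 (SE 0.17, adjusted p = 0.0252). Chd3, a NuRD ATPase, fell by 1.67 on the log2 scale (SE 0.33, adjusted p = 0.0361), from 136, 172 and 131 CPM to 31.4, 36.7 and 64.6 CPM. Aff4, a scaffold of the super elongation complex that works with MLL fusion partners, fell by 1 (SE 0.22, adjusted p = 0.0469). Each of these 4 calls was lost in several of the fits without 1 library. EdgeR called 0 of 129 in the LSK genotype comparison, 0 of 131 in the interaction and 0 of 127 in the enhancer-null comparison of gates, with unadjusted p under 0.05 in 12, 11 and 8 of them (7.91%, 7.64% and 6.92% of all genes). DESeq2 called 2, 1 and 2 there (2.31%, 1.47% and 1.82% of all genes) and voom 0 in each.

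Kdm6a, which lies on the X chromosome (plus strand of chrX:18162575-18279936) and is known to escape X inactivation, was also compared by the sex of the libraries, a comparison chosen after its values were seen. Xist and Y-linked transcripts marked replicates 1 and 2 of the enhancer-null mice and replicate 1 of the wild type as male in both gates, and the remaining libraries as female. It read 72.6 to 294 CPM in the 6 female libraries (mean 142 ± 78.2 SD) and 43.6 to 140 CPM in the 6 male libraries (mean 87.9 ± 41 SD). In an edgeR fit of sex beside the 4 group means over all 12 libraries, the log2 difference of female minus male was 1.03 (SE 0.28, unadjusted p = 0.00377). It failed the adjustment (adjusted p = 1), where 0.0394% of 12684 genes were called. Over the alternatives the estimate ran from 0.84 to 1.32 and the adjusted p from 0.0627 to 1. None of the other 38 members had an unadjusted p under 0.05 in this fit. The fit took the 12 libraries as independent, although libraries of a genotype with the same number had the same sex in both gates. If a number marks 1 animal, the SE and p may be too small. Sex was unevenly spread over the genotypes, with 2 male libraries among 3 enhancer-null and 1 among 3 wild-type libraries of each gate.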

How the data were processed

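Per the labels' protocols, RNA from the sorted cells was isolated beside a carrier, converted to cDNA with a low-input kit, amplified, and read as pairs of 75 bases. Each deposited file holds whole-number read counts for 1 library, by gene symbol. The submitters' processing notes name TopHat2 2.0.4, TopHat, Bowtie, HTSeq and mm10. Annotation, counting mode and strand setting: not given in the sources used here, so that overlapping antisense genes and near-identical paralogs are uncertain. Rows that name no gene held 37.2% to 46.9% of counts and were left out.

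The file of 1 library, wild-type CMP replicate 6, has 23456 symbols where the others have 24420. Joining 22779 identical symbols and 604 older names known to RefSeq gave 23383 genes. A shared symbol may cover other exons in that file. No 2 libraries were identical. P-values measure the spread between these libraries, since the labels do not say that replicates are separate animals.

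Tests used R 4.3.3 and edgeR 4.0.16 (quasi-likelihood, robust, TMM, filter with a minimum count of 10), adjusted over all genes at 0.05, on the libraries compared, or on all 12 for the interaction. The scripts were tested on simulated data. A standard error is the log2 fold change divided by the root of F. Intervals are 95%. Levels are TMM-scaled CPM. Exon lengths and positions come from GENCODE M21. The biological coefficient of variation was 0.719 to 0.823. Depth gives a floor (3 counts) of 0.0612 to 0.487 CPM. Intervals rest on the spread between libraries, which includes amplification noise that differs between them. They do not cover an amplification bias shared by the libraries, and reads carry no molecular identifiers. Alternatives were DESeq2 1.42.0, limma 3.58.1 (voom with sample weights), RLE scaling, no filter, sex as a covariate, all 12 libraries in 1 fit, a replicate block and leaving out each library; leaving out enhancer-null CMP replicate 1 and wild-type LSK replicate 6 together was added after seeing the data. Members and lists were chosen with earlier results of these data known. Named in each comparison and complex were the members past the threshold, up to 4, or the 1 with the smallest p, plus fixed paralog pairs; Rnf2, Wdr5, Kdm1a, Ring1, Jarid2, Suz12, Eed, Smarcb1, Smarcc1, Smarcd2, Arid1a, Arid2, Asxl2, Kat2a and Hdac3 were named in addition after their values were seen. The summed stem cell marker list is not reported here.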

Additional observations from a re-analysis of the deposited data

How the results depend on the processing

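The 25 gene differences named by rule, and that of Kdm6a by sex, kept their direction in every alternative run. Over all 39 members, the sign held in every alternative for 26 in the CMP genotype comparison, 23 in the LSK one, 18 in the interaction, 28 in the wild-type and 22 in the enhancer-null comparison of gates. Of the estimates or intervals given above, the sign changed in at least 1 alternative for Ezh2, Cbx7 and Smarca2 in the CMP genotype comparison, Crebbp and Ep300 in the LSK one, Cbx8, Smarcb1, Smarcc1 and Hdac3 in the wild-type comparison of gates, and Crebbp, Ep300, Kdm6b and Smarca2 in the enhancer-null one. RLE scaling gave the same counts of called members and other subunits as TMM, and 71 against 69 genes in the CMP genotype comparison, 11 against 12 in the LSK one, 34 against 37 in the interaction and 481 against 505 in the wild-type comparison. Members called in the CMP genotype comparison numbered 0 with edgeR, 3 with DESeq2, 2 without the filter and 1 with all 12 libraries. Over all genes, edgeR called 69 and DESeq2 629 of 11722. The fit without the filter called 270 of 19163 and that of all 12 libraries 232 of 12684. In the wild-type comparison of gates, members called numbered 1 with edgeR, 5 with DESeq2, 5 with voom and 2 without the filter. They numbered 2 with all 12 libraries and 0 with sex as a covariate. When 1 library was left out they numbered 0 to 2, with 2 without wild-type LSK replicate 6. Over all genes, the calls of edgeR, DESeq2 and voom were 505, 1609 and 1558 of 12027, and 285 with sex as a covariate. They were 717 of 19245 without the filter and 482 of 12684 with all 12 libraries. Without 1 library they ran from 54 to 880, the latter of 12911 genes without wild-type LSK replicate 6. Other subunits called in the CMP genotype comparison numbered 1 with edgeR, 9 with DESeq2, 3 without the filter and 4 with voom. They numbered 0 with sex as a covariate, 3 with all 12 libraries and 0 to 1 without 1 library. Over all genes, voom called 234 of 11722, the fit with sex 31, and the fits without 1 library 7 to 92. For the wild-type comparison, other subunits called numbered 4 with edgeR, 20 with DESeq2, 8 without the filter and 19 with voom. They numbered 2 with sex as a covariate and 0 to 8 without 1 library, beside the calls over all genes given above. DESeq2 called 2 other subunits in the LSK genotype comparison, 1 in the interaction and 2 in the enhancer-null comparison of gates, where edgeR called 0. The cause of these differences between settings was not tested. Without the filter, the log2 fold changes of all genes had a median of -0.38 in the CMP genotype comparison and 0.26 in the wild-type comparison.

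The fit with the replicate block called 0 members and 0 other subunits in the wild-type comparison and 132 genes in all, against 505 without it, and 7 against 37 genes in the interaction. Deviations of CMP and LSK libraries with the same number correlated between -0.03 and 0.09 over 9186 genes, and 4 of 6 libraries correlated best with their own number. Libraries with the same number had the same sex in both gates. No conclusion on pairing was drawn from these correlations, and whether a number marks 1 animal is not given in the sources used here. No paired analysis was possible for the genotype comparisons because the groups share only replicate number 1.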
